A study of Mus musculus with 12 samples.

Results

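Genes that extracellular signal-regulated kinase (ERK) switches on, and that report or restrain its activity, were followed through every library: Dusp4, Dusp5, Dusp6, Spry1, Spry2, Spry4, Spred1, Spred2, Etv4 and Etv5. They were taken by gene symbol, and all 10 of 10 were found once among the 56748 genes of the table. RNA was sequenced from 2-week-old mice with a rod-specific deletion of Shp2, the phosphatase encoded by Ptpn11, and from littermate controls. The RiboTag allele lets Cre mark ribosomes, so that RNA on rod ribosomes can be pulled down with beads (translating ribosome affinity purification, TRAP), and the RNA of the whole retina was kept as input. Control animals were RiboTag; Shp2 fl/+; i75-Rod-Cre (Het), and the deleted animals were RiboTag; Shp2 fl/fl; i75-Rod-Cre (KO). All animals carried Cre under the rhodopsin promoter and were homozygous for RiboTag, so the controls had already lost 1 copy of Shp2 in rods, although sample titles call them wild type. Each genotype gave 3 rod libraries and 3 whole-retina libraries. The labels do not say that each replicate is a separate mouse, and p-values then measure only the spread between these libraries.

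ERK is the last kinase of the Ras, Raf and MEK cascade, and Shp2 acts upstream of it by helping receptor tyrosine kinases switch on Ras. Active ERK induces genes that close negative feedback loops. Dual-specificity phosphatases (Dusp) remove its activating phosphates, Sprouty (Spry) and Spred proteins block the signal on the way to Raf, and the ETS factors Etv4 and Etv5 carry it on to further genes, so the transcripts are widely read as a proxy of ERK output. In the retina these genes are best known from glia, from progenitors and from responses to fibroblast growth factor.

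The proximal promoters of 3 members are shown because these genes took different places in rods: Spry2 and Dusp5 had the highest levels there, and Dusp6 was among the lowest. RefSeq sequence on GRCm38.p6 was on hand for 7 members, with 2 starts for Etv5 and 1 for each of Dusp5, Dusp6, Spred1, Spred2, Spry1 and Spry2. Dusp4, Spry4 and Etv4 had no entry in the table used. The windows printed are the 250 bases before the start, at chr19:53528895-53529144 on the plus strand for Dusp5, chr14:105896820-105897069 on the minus strand for Spry2 and chr10:99262981-99263230 on the plus strand for Dusp6. Runs of 4 capitals mark GGAA, the core that ETS factors recognise, on either strand, and the run of 20 capitals in Dusp5 holds 2 adjacent CArG boxes, the element read by serum response factor together with ERK-phosphorylated partners.
Dusp5: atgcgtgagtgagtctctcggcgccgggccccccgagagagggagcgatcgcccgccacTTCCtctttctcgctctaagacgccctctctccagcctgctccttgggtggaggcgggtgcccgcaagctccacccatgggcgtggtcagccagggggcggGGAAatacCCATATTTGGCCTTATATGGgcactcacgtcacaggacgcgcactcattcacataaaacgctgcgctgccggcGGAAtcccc
Spry2: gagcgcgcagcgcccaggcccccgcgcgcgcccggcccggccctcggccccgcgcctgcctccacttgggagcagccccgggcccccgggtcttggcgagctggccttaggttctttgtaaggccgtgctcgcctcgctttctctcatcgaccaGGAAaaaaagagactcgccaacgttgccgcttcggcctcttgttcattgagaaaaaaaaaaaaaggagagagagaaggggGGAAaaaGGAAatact
Dusp6: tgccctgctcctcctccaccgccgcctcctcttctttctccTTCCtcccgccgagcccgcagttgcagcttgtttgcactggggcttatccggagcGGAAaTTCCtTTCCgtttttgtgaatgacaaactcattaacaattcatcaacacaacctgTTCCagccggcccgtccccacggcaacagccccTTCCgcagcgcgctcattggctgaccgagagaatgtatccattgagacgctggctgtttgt

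The CArG box, which was looked for after the Dusp5 sequence had been seen, was in 1.47% of all 32851 promoter windows and in 1 of the 8 windows of the members, that of Dusp5. GGAA was in 7 of the 8 windows and in 93.4% of all windows, so its presence sets the members apart in no way. The ETS site CCGGAAG, the cyclic AMP element TGACGTCA, the AP-1 site TGANTCA and the photoreceptor motifs TAATCC and TGCTGA, each searched on both strands, were in 0 of the 8 windows, against 6.91%, 1.55%, 6.75%, 6.25% and 16.1% of all windows. These letters are a description of the reference sequence.

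The table holds whole numbers already brought to nearly equal totals, 16263948 to 16265259 in rods and 14525527 to 14527992 in retina. The reads behind them were estimated at 13500000 to 25300000 per library in rods and 9990000 to 19220000 in retina. By this estimate 3 reads were worth a value of 1.93 to 3.62 in rods and 2.27 to 4.36 in retina. The 25300000 and the 1.93 belong to Het rods replicate 2, whose estimate had the poorest fit. The rod libraries were rod-like by their markers: in Het, 7 of 7 rod markers were higher in rods than in retina (median log2 fold change 1.87), and the median was -4.91 for Müller glia (7 of 7 lower), -4.76 for amacrine cells (5 of 5), -5.06 for ganglion cells (5 of 5) and -4.83 for bipolar cells (4 of 6). Of the bipolar markers 1 was higher in rods (log2 fold change 0.87), and their summed scaled values were 9579 to 11317 in Het rods and 15100 to 15866 in Het retina. The medians were -3.25 for horizontal cells, -3.20 for retinal pigment epithelium and -3.75 for vessels (3 of 3, 3 of 3 and 5 of 5 lower), -4.61 for microglia and -5.49 for astrocytes (3 of 3 and 2 of 2 tested), and -1.11 for cones (5 of 5). Microglia and astrocyte markers summed to 2.13 to 12.04 and 2.16 to 6.57 in Het rods. Onecut1 of horizontal cells and Cldn5 and Cdh5 of vessels were at 0 there. All of these were tested only through their retina libraries, so a higher call was hardly open to them. Lens genes varied most, with summed scaled values of 84.0 to 191301 in Het retina and 49076 to 662049 in KO retina, and of 4.26 to 4338 in Het rods and 1946 to 14173 in KO rods. The targeted gene Ptpn11 had deposited values of 2511, 2439 and 2431 with 1 copy left in rods (Het), against 1735, 2139 and 1971 in the KO rod libraries. The groups did not overlap, yet the log2 fold change of -0.23 (SE 0.09, limma adjusted p = 0.0775) did not pass the threshold. Gene-level values also count the exons that the deletion leaves in place.

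In control rods the 10 transcripts fell into 4 that were well represented and 6 that were barely there. Spry2, an inhibitor of receptor tyrosine kinase signalling, was the most abundant per kilobase of transcript, at 319 ± 45.9 scaled units (SD, n = 3). Dusp5, a nuclear phosphatase specific for ERK, followed at 175 ± 19.6, then Spred1, which brings neurofibromin to the membrane to switch off Ras, at 87.6 ± 2.56, and Etv5 at 33.0 ± 7.26. None of these 4 overlapped with its neighbour in the order.

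The other 6 lay far lower. Spred2, Dusp4 and Dusp6 had 4.95 ± 1.49, 4.47 ± 2.80 and 3.09 ± 0.43 scaled units per kilobase, with overlapping libraries at each step, and Spry4 had 1.97 ± 0.70. Spry1 and Etv4, at 0.52 ± 0.22 and 0.15 ± 0.26, rested on almost no reads. The deposited values of Spry1 in Het rods were 1, 1 and 2, and those of Etv4 were 0, 0 and 1, all under what 3 reads are worth in their library.

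Whole retina ranked the genes otherwise. Spry2 was again first, at 357 ± 47.5 scaled units per kilobase in Het, and Spred1 second, at 221 ± 31.9. Dusp5, Etv5 and Dusp4 overlapped at 132 ± 41.2, 127 ± 30.5 and 120 ± 7.01, followed by Spred2 (66.7 ± 8.72), Dusp6 (47.6 ± 6.47), Spry4 (34.3 ± 1.94), Spry1 (27.0 ± 10.02) and Etv4 (8.60 ± 3.20), of which Spry4 and Spry1 overlapped. Dusp4 thus stood beside Dusp5 in the retina and far under it in rods.

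**Figure D1:**
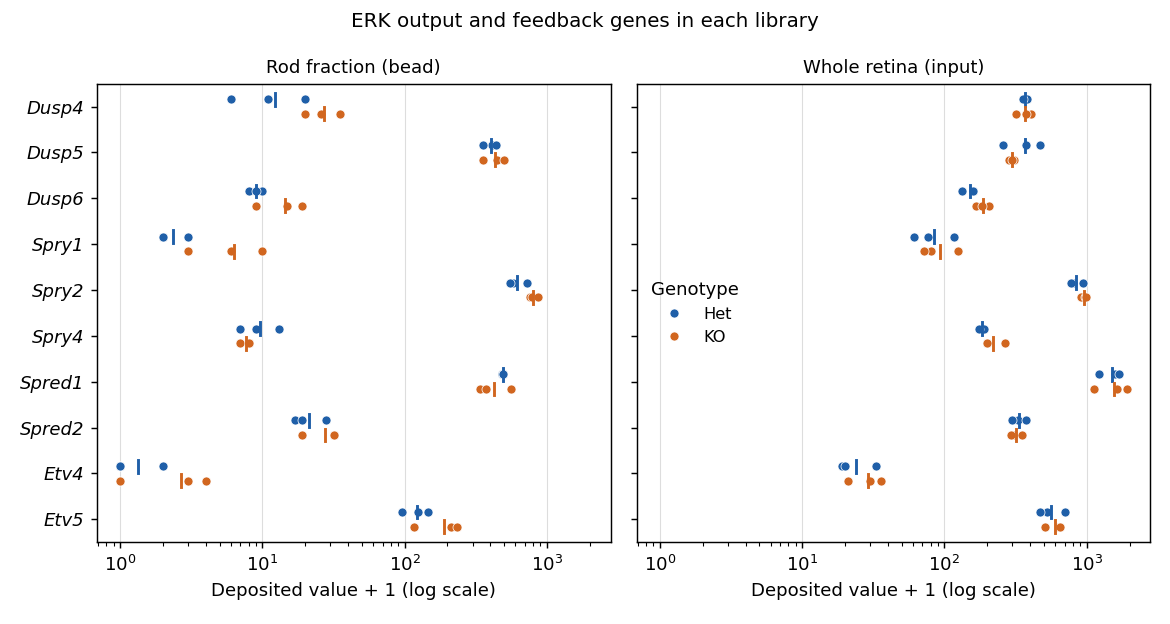
Deposited value plus 1 (log axis) of each of the 10 genes in the 6 rod libraries (left) and the 6 whole-retina libraries (right), with Het in blue and KO in orange, points for libraries and short lines for group means. Spry2, Dusp5, Spred1 and Etv5 stand at 95 or more in every rod library, and the other 6 genes at 34 or less.

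Rods were first set against whole retina within the control genotype. This compares RNA on rod ribosomes with the RNA of the whole tissue, rods included. Of the 10 members, 8 had less in Het rods than in Het retina and 0 had more, a call that needed a limma adjusted p below 0.05 together with a log2 difference beyond 0.5. Over all 16110 genes tested, 36.4% were lower and 22.7% higher by the same rule. The median log2 fold change of the members was -3.47, against -0.08 over all genes. Testing needed a value of about 10 in at least 3 libraries. Dusp4, Dusp6, Spry1, Spry4 and Etv4 passed this filter on low values only through their retina libraries. A higher call was hardly open to them. With no filter 8 members were again lower and 0 higher. In bulk RNA, fewer cells with a transcript, less of it per cell and a smaller part of it on ribosomes cannot be told apart. Recovery on the beads also enters the comparison and was not tested.

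Among the phosphatases, Dusp4, an inducible nuclear enzyme, had deposited values of 5, 10 and 19 in Het rods and 370, 381 and 354 in Het retina. The libraries were far apart, with a log2 fold change of -4.68 (SE 0.38, adjusted p = 1.49e-05), 25.7-fold lower in rods on the log2(value + 2) scale. Dusp6, the cytoplasmic phosphatase that is a standard reporter of fibroblast growth factor signalling, had 7, 9 and 8 in rods and 131, 158 and 159 in retina. It was 12.7-fold lower, with a log2 fold change of -3.67 (SE 0.25, adjusted p = 5.81e-06).

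Dusp5 behaved otherwise. It had 412, 436 and 353 in Het rods and 372, 471 and 257 in Het retina, and the groups overlapped. The log2 fold change was 0.44 (SE 0.23, adjusted p = 0.126), and it was 0.00 when libraries were scaled by size alone and 0.72 (adjusted p = 0.000704) when each library's trend with GC content was removed, so no direction is given for it in the control genotype.

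Among the Sprouty genes, Spry4 had 6, 8 and 12 in Het rods and 186, 189 and 175 in Het retina, again far apart (log2 fold change -3.91, SE 0.28, adjusted p = 7.26e-06). Spry1, at 1, 1 and 2 against 60, 115 and 76, was also called lower. Its fitted log2 fold change of -4.46 (SE 0.35, adjusted p = 1.14e-05) depends on the pseudocount, and ran from -5.27 with 0.5 to -3.11 with 8.

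Spry2 was the exception in its family. It had 579, 552 and 719 in Het rods and 802, 935 and 769 in Het retina, and once scaled the groups overlapped, at 604 to 776 and 686 to 859. The log2 fold change was -0.16 (SE 0.15, adjusted p = 0.384). Under library size alone, which moved the median of all genes from -0.08 to -0.51, Spry2 was -0.60 (adjusted p = 0.00726), close to that median.

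The Spred genes and the ETS factors were lower in rods by unequal amounts. Spred1 had 479, 493 and 493 in Het rods and 1582, 1224 and 1686 in Het retina, the smallest of the 8 differences called (log2 fold change -1.32, SE 0.14, adjusted p = 4.98e-05). Spred2, a close relative that restrains the same step, had 16, 27 and 18 against 330, 371 and 299, and was 12.7-fold lower (log2 fold change -3.67, SE 0.25, adjusted p = 6e-06). Etv5 had 95, 145 and 124 against 522, 699 and 470, 3.78-fold lower (log2 fold change -1.92, SE 0.23, adjusted p = 0.000124).

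Etv4, an ETS factor of the same subfamily, was sparse in the retina too, at 18, 32 and 19. Against 0, 0 and 1 in rods its fitted log2 fold change was -3.26 (SE 0.36, adjusted p = 7.22e-05), with -4.81 and -1.77 at pseudocounts of 0.5 and 8. For the least abundant members the rod level can be set beside that of cells the beads should not hold. Single Müller markers ran from -5.45 to -4.26 in the same comparison and ganglion markers from -5.45 to -4.17. That range held Dusp4 and Spry1, while Spry4, Dusp6 and Spred2 lay above it. Horizontal cell markers ran from -5.12 to -3.16 and vessel markers from -5.09 to -0.90. Amacrine markers ran from -4.99 to -1.81 and bipolar markers from -5.37 to 0.87. Each of these ranges held Spry4, Dusp6 and Spred2, and also Etv4 as fitted. Microglia markers (-4.79 to -4.41) and astrocyte markers (-5.50 to -5.48) lay below these genes, and cone markers (-1.32 to -0.78) above them. The part of RNA from other cells in these low rod values was not tested.

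**Figure D2:**
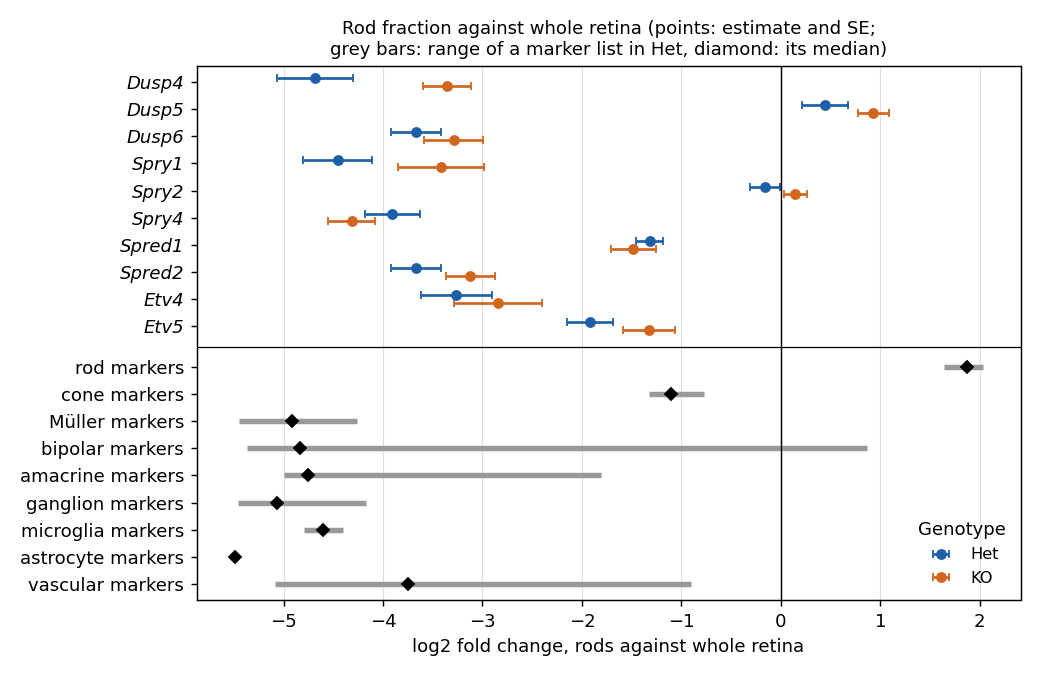
Log2 fold change of rods against whole retina for the 10 genes in Het (blue) and KO (orange), with bars of 1 SE, above the range (grey) and median (diamond) of cell type marker lists in Het. In Het, Dusp4 and Spry1 lie within the ranges of the Müller and ganglion cell markers, and Spry2 and Dusp5 lie near 0.

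The same comparison in the KO genotype used 6 other libraries. Again 8 of 10 members were lower in rods, against 36.1% of the 16121 genes tested, and 1 was higher, against 26.9%. The median of the members was -2.98 and that of all genes 0.01. Dusp6, Spry1, Spry4 and Etv4 again passed the filter on low values only through their retina libraries. The member called higher was Dusp5, with 353, 445 and 496 in KO rods and 282, 306 and 298 in KO retina (log2 fold change 0.93, SE 0.16, adjusted p = 0.00079). Scaled by library size alone it was 0.37 and was not called (adjusted p = 0.0772).

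Dusp4 had 34, 19 and 25 in KO rods and 407, 371 and 317 in KO retina (log2 fold change -3.36, SE 0.24, adjusted p = 6.07e-06). Spry4, with 7, 6 and 7 against 264, 199 and 197, was the member furthest below the retina (log2 fold change -4.31, SE 0.24, adjusted p = 1.88e-06). Dusp6, Spry1, Spred2, Etv4, Spred1 and Etv5 were lower by fitted log2 fold changes of -3.29, -3.42, -3.12, -2.84, -1.49 and -1.32. Spry2 was 0.15 (adjusted p = 0.275). The order of the genes in KO rods was led by the same 4 members as in Het rods, with Spry2 at 452 ± 28.3, Dusp5 at 206 ± 33.5, Spred1 at 82.5 ± 21.9 and Etv5 at 55.4 ± 18.6 scaled units per kilobase, the last pair overlapping. Dusp4 came next at 11.2 ± 3.20, clear of Spred2 at 7.05 ± 1.91, and from Spred2 through Dusp6 (5.60 ± 2.04) and Spry1 (2.25 ± 1.46) to Spry4 (1.65 ± 0.12) each gene overlapped with the next. In KO retina the order was that of Het retina except that Dusp5, at 106 ± 6.86, stood behind Etv5 (134 ± 20.5) and Dusp4 (118 ± 10.5).

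KO rods were then compared with Het rods, the comparison that asks what loss of the second Shp2 copy does to ERK output. Of the 6 members abundant enough to test, 1 was called higher, Dusp4, and 0 lower, where 12.1% of the 13055 genes tested were called higher and 1.55% lower. The log2 fold changes of the 6 ran from -0.14 to 1.27 with a median of 0.47, against 0.01 over all genes, and 5 of 6 were above 0, as were 51.4% of all genes. Scaled by library size alone, higher calls fell from 88.7% to 67.3% of all calls and the median of all genes moved from 0.01 to -0.09, while the members' calls stayed at 1. Scaled values of the genotypes were apart for 3 of the 10 members, Dusp4, Spry2 and Spry1, all higher in KO, the last on few reads, and for 26.6% of the genes tested in that direction.

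Dusp4 had 5, 10 and 19 in Het and 34, 19 and 25 in KO. The Het libraries alone would not have carried it past the filter on low values. The highest Het library and the lowest KO library tied at 19 as deposited, and after scaling the groups separated narrowly, at 5.32 to 20.5 and 22.7 to 40.1. The log2 fold change was 1.27 (SE 0.41, adjusted p = 0.0411), 2.41-fold higher. This call was fragile: with the GC trend removed it was 0.91 (adjusted p = 0.153), without Het rods replicate 1 it was 0.87 (adjusted p = 0.149), and over all alternatives the adjusted p ran from 0.0199 to 0.215.

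Beside it, the summed markers of amacrine cells were 551 to 577 in Het rods and 728 to 908 in KO rods, without overlap, and the median of the 4 amacrine markers tested was 0.16, with 2 of 4 above 0 and log2 fold changes from -0.09 to 0.75. Summed rod markers were apart too, at 2353920 to 2679040 in Het rods and 2823290 to 3142563 in KO rods. Sums of every other marker list overlapped between the genotypes. Of single genes tested, 26.6% were apart and higher in KO. The only amacrine marker called higher was the one at 0.75, the glycine transporter Slc6a9, named here after its values were seen. The medians of the marker lists between KO and Het rods were 0.25 for Müller glia (1 of 6 called), 0.07 for ganglion cells (0 of 4), 0.29 for bipolar cells (0 of 6), 0.11 for cones (0 of 5) and 0.20 for rods (0 of 7). Lens genes had a median of 2.67 with 0 of 5 called. Their part in the value of Dusp4 was not tested.

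Spry2 gave the clearest separation. It had 579, 552 and 719 in Het and 754, 781 and 866 in KO, so the groups did not overlap on either scale. The log2 fold change of 0.49 (SE 0.11, adjusted p = 0.00949) passed the limit on p and fell just under the fold limit of 0.5. By p alone 17.0% of all genes were higher. With the GC trend removed Spry2 was 0.72 (adjusted p = 0.00241) and was called. With no trend or robust option the limma adjusted p was 0.0546, and in 1 fit of all 12 libraries it was 0.215. Over all 17 alternatives the log2 fold change of Spry2 ran from 0.38 to 0.72.

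Etv5 had 95, 145 and 124 in Het and 115, 212 and 234 in KO. KO replicate 1 lay among the controls, and the log2 fold change of 0.68 (SE 0.27) did not pass (adjusted p = 0.0969). It passed without KO rods replicate 1 (0.99, adjusted p = 0.0147). With any other rod library left out it did not pass, at adjusted p of 0.0993 to 0.285. Spred2 had 16, 27 and 18 against 31, 18 and 31, a log2 fold change of 0.45 (SE 0.31, adjusted p = 0.313).

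Dusp5 and Spred1 gave small values whose sign was not fixed. Dusp5 had 412, 436 and 353 in Het and 353, 445 and 496 in KO (log2 fold change 0.21, SE 0.14, adjusted p = 0.291), and was -0.21 with the GC trend removed. Spred1 had 479, 493 and 493 against 336, 374 and 556 (-0.14, SE 0.15, adjusted p = 0.547), and was 0.20 with the trend removed. For Spred1, KO replicate 3 was above all controls and the other KO libraries below them, as deposited, and for Dusp5 the groups overlapped.

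The remaining 4 members were below the filter on low values in rods. Dusp6 had 7, 9 and 8 in Het and 14, 8 and 18 in KO. Spry1 had 1, 1 and 2 against 5, 2 and 9, Spry4 had 6, 8 and 12 against 7, 6 and 7, and Etv4 had 0, 0 and 1 against 3, 0 and 2. Tested with no filter, their log2 fold changes were 0.65, 1.09, -0.18 and 0.60, with adjusted p of 0.361, 0.173, 0.822 and 0.392. None passed the test. As deposited, the genotypes overlapped for Dusp6, Spry4 and Etv4 and tied at 2 for Spry1.

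The rod libraries of the 2 genotypes also differed in how values followed GC content. The median deviation of GC-rich genes (highest decile) from GC-poor genes (lowest decile) was -0.81, -0.23 and -0.42 log2 units for Het rods, against 0.42, 0.76 and 0.28 for KO rods, without overlap, so this trend and the genotype cannot be told apart. It was -0.24, 0.86 and -0.84 in Het retina and 0.01, -0.63 and 0.90 in KO retina, where genotypes overlapped. The members spanned 41.2% GC for the Spred1 transcript to 58.7% for Etv4, with 46.2% for Spry2 and 56.0% for Dusp4. Removing the trend cut higher calls over all genes from 1579 to 352 and lower calls from 202 to 101.

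**Figure D3:**
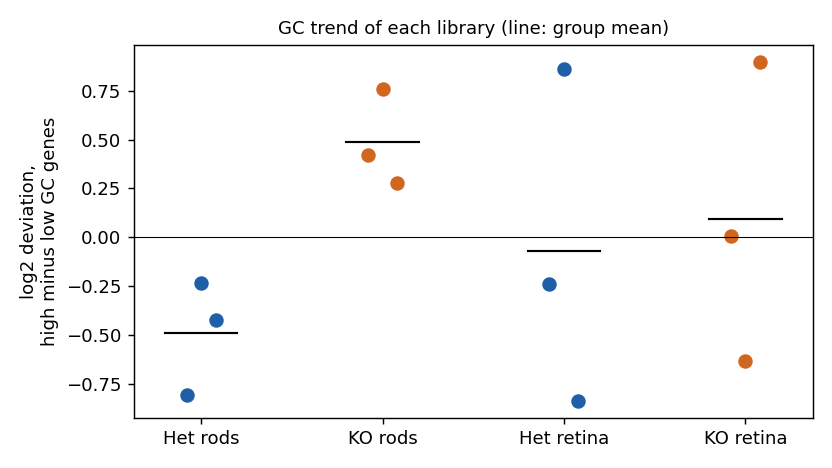
Difference in median log2 deviation between genes of high and of low GC content, for each library by group, with a line at each group mean. The 3 Het rod libraries lie between -0.81 and -0.23 and the 3 KO rod libraries between 0.28 and 0.76, while the retina libraries of both genotypes overlap.

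In whole retina no member passed the test between genotypes. limma called 0 of 10 members and 0 of 16863 genes (0.0%), with 140 genes (0.83%) at an unadjusted p below 0.05. The log2 fold changes of the members ran from -0.25 for Dusp5 to 0.32 for Dusp6, with a median of 0.13 against 0.01 over all genes, and 7 of 10 were above 0, as were 52.6% of all genes. Every adjusted p was 1.0.

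A pair of members separated by genotype in the retina on at least 1 scale. Dusp6 had 131, 158 and 159 in Het retina and 205, 166 and 184 in KO retina, apart as deposited and overlapping after scaling (log2 fold change 0.32, SE 0.19). Spry4 had 186, 189 and 175 against 264, 199 and 197, apart on both scales (0.26, SE 0.18). Over all genes, scaled values were apart and higher in KO for 1.46%.

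The others overlapped. Dusp4, at 370, 381 and 354 in Het retina and 407, 371 and 317 in KO retina, had a log2 fold change of 0.00 (SE 0.15). Etv5 had 522, 699 and 470 against 636, 508 and 649, and Spry2 had 802, 935 and 769 against 910, 968 and 982, with values of 0.11 (SE 0.20) and 0.21 (SE 0.14). Spred1, at 1582, 1224 and 1686 against 1645, 1924 and 1124, had 0.06 (SE 0.22).

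**Figure D4:**
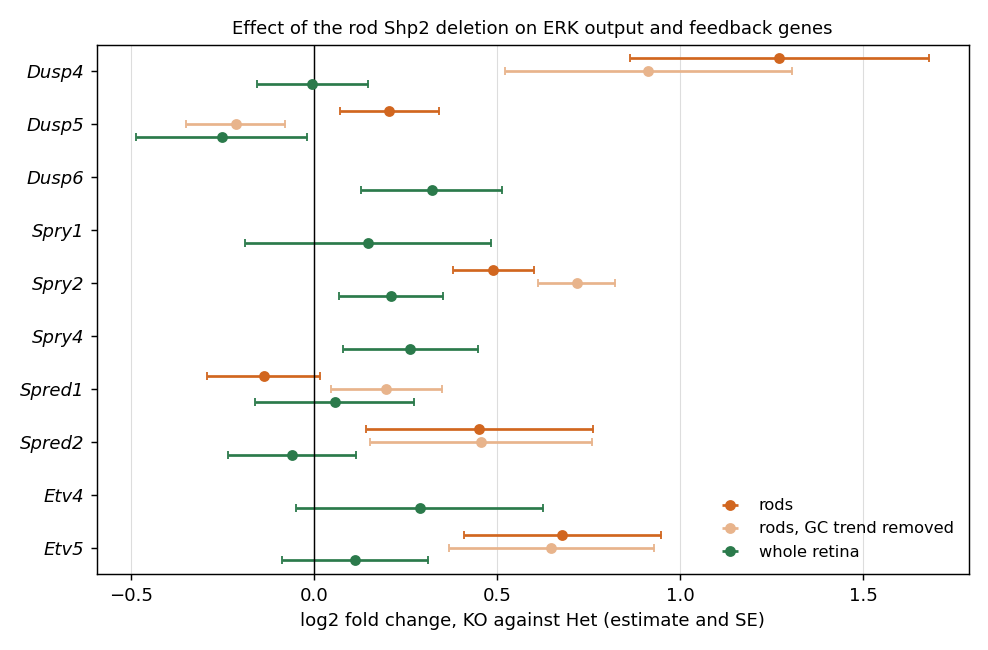
Log2 fold change of KO against Het for each gene, with bars of 1 SE, in rods (dark orange, 6 genes past the filter), in rods with the GC trend removed (light orange) and in whole retina (green). In rods Dusp4 has the highest estimate at 1.27 and Spred1 the lowest at -0.14, and removing the trend turns the sign of Dusp5 and Spred1.

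Whether KO moved a gene differently in rods and in retina was tested as an interaction. limma called 0 of 10 members and 0 of 17192 genes (0.0%), with 517 genes (3.01%) at an unadjusted p below 0.05. Dusp4 had the highest value of the members, a difference of 1.33 on the log2 scale (SE 0.48, unadjusted p = 0.016, adjusted p = 0.888). Spry1 followed at 1.02 (SE 0.58) and Spry4 was lowest at -0.42 (SE 0.34). An effect in rods that differs from that in retina was therefore not shown for any member.

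Other genes of the pathway were read from lists written alongside the members. Of the phosphatases and feedback relatives, 13 were listed, 12 were found once in the table and 10 were tested in Het rods against Het retina. There 2 were higher and 5 lower, where 22.7% of all genes were higher and 36.4% lower, with a median of -1.46 against -0.08. The higher pair were Dusp7, another ERK phosphatase (759, 932 and 840 in Het rods, log2 fold change 0.57, adjusted p = 0.0386), and Dusp8, which prefers stress kinases (3334, 3602 and 3086, log2 fold change 0.69, adjusted p = 0.00709). Between KO and Het rods 0 of 8 tested were called. Dusp7 was 0.47 (adjusted p = 0.0311, under the fold limit) and -0.03 with the GC trend removed. The Ras brakes Nf1 and Rasa1 were -0.03 (adjusted p = 0.832) and -0.15 (adjusted p = 0.275).

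The core cascade runs from adaptor proteins through Ras and Raf to ERK. Of 18 genes, 2 were higher and 4 lower in rods when Het fractions were compared, smaller shares than the 22.7% and 36.4% of all genes, with a median of -0.30 against -0.08. Among the higher was Rps6ka2, an ERK-activated kinase (log2 fold change 0.81, adjusted p = 0.00581). Between KO and Het rods, 2 of 17 were called higher and 0 lower, close to the 12.1% and 1.55% of all genes, with a median of 0.16 against 0.01. Map2k2, which encodes the MEK2 kinase, had 165, 262 and 210 in Het and 410, 625 and 376 in KO (1.24, SE 0.24, adjusted p = 0.00908), and 0.54 (adjusted p = 0.0157) with the GC trend removed. Ksr1, a scaffold of the cascade, had 0.55 (adjusted p = 0.0263), and 0.08 (adjusted p = 0.751) with the trend removed.

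Of the 5 ETS factors that ERK phosphorylates, 4 were lower in Het rods and 0 higher, where 36.4% of all genes were lower, and their median was -1.33 against -0.08. Ets2 had 5, 9 and 24 in Het rods (log2 fold change -3.61, adjusted p = 0.000204), Elk4 had -1.33 (adjusted p = 0.000438) and Elk1 -0.67 (adjusted p = 0.00622). Ets2 passed the filter on low values only through its retina libraries, so a higher call was hardly open to it. Between KO and Het rods limma called 0 of the 4 tested.

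Fast ERK-responsive transcripts held the largest share of calls between genotypes in rods among these lists. Of 12 listed, 7 were tested and 5 were called higher in KO rods and 0 lower, where 12.1% of all genes were higher and 1.55% lower. The median was 1.35, against 0.01 over all genes. Of the 7 tested, 6 were above 0, as were 51.4% of all genes, and the lowest was -0.17. Junb passed the filter on low values only through its KO libraries, and the list was chosen with earlier results of these data known. Egr1, a zinc finger factor induced within minutes of ERK activation, had 82, 189 and 62 in Het and 1019, 564 and 460 in KO (log2 fold change 2.78, SE 0.56, adjusted p = 0.0282). Fos, the AP-1 subunit, had 112, 204 and 117 against 395, 322 and 287 (1.35, SE 0.23, adjusted p = 0.00521).

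Ier3, an early response gene linked to cell survival, had 583, 716 and 913 against 1677, 1884 and 1291 (1.24, SE 0.21, adjusted p = 0.00761). Ier2 had 33, 42 and 37 against 115, 136 and 90 (1.65, adjusted p = 0.00191), and Junb 8, 6 and 2 against 25, 48 and 19 (2.24, adjusted p = 0.00568). With the GC trend removed the values were 2.31 for Egr1 (adjusted p = 0.0781), 1.31 for Fos, 1.02 for Ier3, 0.92 for Ier2 and 1.41 for Junb, the last 4 with an adjusted p of 0.0478 or less. In whole retina 9 of 9 tested were above 0, as were 52.6% of all genes, and 0 were called, with Egr1 at 1.87 (unadjusted p = 0.00224) and Ier3 at 0.69 (unadjusted p = 0.00287).

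**Figure D5:**
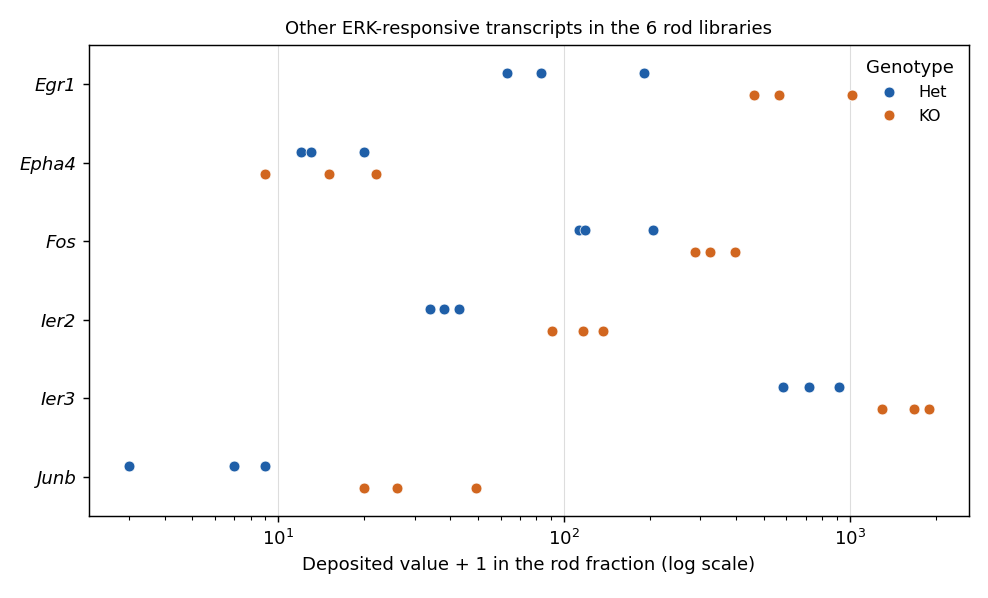
Deposited value plus 1 (log axis) of 6 ERK-responsive transcripts that are not among the 10 genes, in the 3 Het (blue) and 3 KO (orange) rod libraries. Egr1, Fos, Ier2, Ier3 and Junb, the 5 called higher, are apart by genotype, and Epha4, with 11 to 19 in Het and 8 to 21 in KO, is not. The tested transcript with the lowest log2 fold change, -0.17, is not drawn.

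The genes closest in pattern to 1 member of each family were sought over the 12 libraries, which are dominated by the contrast of rods and retina. Dusp6 was matched most closely by Med12l, Zfhx3 and Lamp5 (Pearson r of 0.99 on log2 values for each), and 4647 of 17182 genes had an r over 0.9 with it. For Etv5 the closest were 2900052L18Rik, Asic3 and Socs3 (0.98 for each), with 1757 genes over 0.9. For Spry2, which lacks that contrast, the closest were Anapc11 (0.90), Epor (0.90) and Snhg8 (0.89), and 1 gene was over 0.9.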

How the data were processed

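RNA sequencing values of 12 mouse libraries were used: Het and KO rod TRAP RNA and Het and KO whole-retina RNA, 3 libraries each, grouped by the labels. Mice were perfused with cycloheximide before the tissue was frozen, and cDNA was made from polyA RNA. No column was left over (0 of other samples). The deposited values are a signal in whole numbers. From the near-equal totals and the gaps between low values it was inferred, and is not stated by the authors, that the reads of each library had been multiplied by 1 factor (0.643 to 1.205 in rods, 0.756 to 1.454 in retina) and rounded. For replicate 3 of Het retina the estimate, 0.992, is not distinct from 1. The submitters' processing notes name GRCm39, CASAVA 1.8.2, HISAT2, DESeq2 and edgeR. Their roles, the annotation and the strand of counting are not given in the sources used here.

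Libraries were scaled by TMM factors, raised by a pseudocount of 2 and tested on the log2 scale with limma 3.58.1 (trend and robust options) in R 4.3.3, because scaled values do not suit a count model. Figures were drawn with matplotlib 3.10.9 in Python 3.11.15. Genes with a value of about 10 in at least 3 libraries of a fit and a sum of at least 15 were tested. A gene was called at a Benjamini-Hochberg adjusted p below 0.05 over all genes tested and a log2 fold change beyond 0.5. Scaled values and values per kilobase use 1 set of TMM factors over the 12 libraries, and lengths and GC content come from GENCODE transcripts on GRCm38, with GC known for 98.3% or more of the genes tested. The GC trend was removed by a lowess curve (span 0.3) per library. The steps were tested on simulated data. Rod-depleted genes were kept in the comparison of KO and Het rods, and their removal was an alternative. The other alternatives were library size or RLE scaling, pseudocounts of 0.5 and 8, no filter, no trend or robust option, a replicate block, 1 fit of all 12 libraries and each library left out.

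Replicate numbers come from the titles. Het rods and Het retina of the same number deviated together (correlations of 0.24 to 0.43). Libraries of different genotypes reached 0.53 (KO retina replicate 3 with Het retina replicate 2), so such values cannot show that the numbers pair the libraries. The block changed no call of a member in Het rods against Het retina. Of the pathway lists, genes called between genotypes and the 3 highest in rods and in retina could be named, and text on a list names some of these; others are not reported here. The members and all lists were chosen with earlier results of these data known.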

Additional observations from a re-analysis of the deposited data

How the results depend on the processing

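The count of 8 members called in rods against retina of Het ran from 8 to 9 over all alternatives, and the 9 called in the KO genotype, the 0 in whole retina and the 0 of the difference of effects kept their counts within 1.5 times. The 1 member called between KO and Het rods, Dusp4, lost its call in 8 of 16 alternatives. The count of members called was 0 with no trend or robust option, 0 in 1 fit of all 12 libraries (where limma called 0 of 17192 genes, with 3370 at an unadjusted p below 0.05) and 0 with rod-depleted genes removed, which left 2 members to test. Leaving out 1 library gave 0 to 2, with 0 without Het rods replicate 1 or 2 or KO rods replicate 3, and 2 without Het rods replicate 3 or KO rods replicate 1. Calls over all genes there ran from 1060 without Het rods replicate 1 to 1957 without Het rods replicate 2, against 1781, with 1234 without the trend option and 453 with the GC trend removed.

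With the replicate block, 2 members were called between KO and Het rods (Dusp4 and Etv5, the latter at an adjusted p of 0.00637), and 2 with the block and the GC trend removed (Spry2 and Etv5). Same-numbered KO and Het rod libraries correlated at only 0.016 to 0.095, so there the numbers gave no sign of a pairing. In KO rods and KO retina they correlated at 0.03 to 0.30, and in KO and Het retina at -0.58 to 0.39. A block within genotype for the difference of effects, chosen after seeing the data, also called 0 members. The block changed no other count of members called.

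Some signs turned. Under library size alone Ptpn11 was -0.089 in Het and -0.39 in KO rods against retina, and Spry2 -0.42 in KO. With the GC trend removed, with or without the block, KO against Het rods gave -0.21 for Dusp5 and 0.20 for Spred1, and the difference of effects gave 0.11 for Spred1 and -0.058 for Etv4. Leaving out 1 library, Spred1 ran from -0.35 to 0.0055 in rods, and in retina Dusp4 ran from -0.067 to 0.059, Spry1 from -0.12 to 0.40, Spred1 from -0.10 to 0.24, Spred2 from -0.17 to 0.018 and Ptpn11 from -0.12 to 0.023. In rods against retina, scaling by size alone lowered the share of higher calls from 38.4% to 13.6% in Het and from 42.8% to 12.7% in KO.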
